A study of Mus musculus with 48 samples.

Results

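The regions described here are the captured stretches of the autosomes that overlap, by at least 1 base, the body of a protein-coding gene whose mouse symbol starts with Zfp and a digit. There were 847 of them among 95882 regions (0.883%), and they covered 279 of the 388 such genes on the autosomes. A gene body runs from the first to the last base that RefSeq annotates for the gene on the assembly GRCm38.p6, whose coordinates are those of mm10. Of the 847 regions, 784 lay wholly within a gene body and 4 had less than 10% of their width in it, with a smallest overlap of 107 bases. Another 19 regions lay outside such a gene but within 1 kb of one. Their median level was 7.23 CPM (counts scaled to a common library size, defined below).

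The libraries came from the intestine of 12 mice. Of these, 7 carried the label GermFree (raised without microbes) and 5 the label ConvR (conventionalised). The duodenum, jejunum, ileum and colon of each mouse were sequenced separately, which makes 48 libraries. DNA was sheared to an average of 250 bp, methylated fragments were captured with the methyl-CpG-binding domain (MBD) of the MethylMiner kit, and the captured DNA was sequenced. The labels give no strain, age, sex or genotype, and they describe whole intestine sections, so that cell types within a section cannot be told apart. A level is a count scaled to the library with TMM factors and given as CPM. Methylation of a stretch and its copy number in the genome both raise the level, and these cannot be told apart here.

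Zinc finger proteins of this class hold DNA with a row of short folds, each built around a zinc ion, and the order of the folds sets which sequence is held. Many also carry a KRAB box, which binds the corepressor TRIM28. TRIM28 brings in the histone methyltransferase SETDB1 and HP1 proteins, and the bound DNA is packed into silent chromatin. Retroelements and imprinted loci are known targets. The genes have multiplied as copies side by side, and in the mouse a large set of young copies lies near the far end of chromosome 4. Other genes with the same symbol prefix have unrelated roles in transcription or in RNA decay, so the symbol does not name a pathway.

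The starts of the chromosome 4 copies are shown because 9 of the 19 starts of Zfp genes that overlapped a captured region lie there, and because the copies are so alike. Each window is 300 bases long, from 250 bases before the start of transcription to 50 after it, from RefSeq (GRCm38.p6), written 5′ to 3′ along the strand of the gene, with CG, the dinucleotide whose methylation the capture reads, in capitals. The window of Zfp980 is chr4:145670447-145670746 on the plus strand. That of Zfp988 is chr4:147305354-147305653 on the plus strand. The window of Zfp979 is chr4:147642459-147642758 on the minus strand. That of Zfp534 is chr4:147702582-147702881 on the minus strand. These 4 windows overlapped a captured region. The window of Zfp600, chr4:146156577-146156876 on the plus strand, did not.
Zfp980: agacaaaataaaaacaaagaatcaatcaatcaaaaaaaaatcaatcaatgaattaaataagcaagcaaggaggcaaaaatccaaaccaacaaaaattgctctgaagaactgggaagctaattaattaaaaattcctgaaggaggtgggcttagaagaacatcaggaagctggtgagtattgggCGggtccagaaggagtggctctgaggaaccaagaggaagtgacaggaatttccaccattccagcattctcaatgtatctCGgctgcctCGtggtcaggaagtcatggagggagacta
Zfp988: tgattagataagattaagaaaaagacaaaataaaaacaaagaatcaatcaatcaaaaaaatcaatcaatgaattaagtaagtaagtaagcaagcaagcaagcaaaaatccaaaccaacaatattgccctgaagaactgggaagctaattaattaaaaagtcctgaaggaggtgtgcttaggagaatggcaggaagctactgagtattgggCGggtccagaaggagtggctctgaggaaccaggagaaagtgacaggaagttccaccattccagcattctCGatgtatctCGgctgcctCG
Zfp979: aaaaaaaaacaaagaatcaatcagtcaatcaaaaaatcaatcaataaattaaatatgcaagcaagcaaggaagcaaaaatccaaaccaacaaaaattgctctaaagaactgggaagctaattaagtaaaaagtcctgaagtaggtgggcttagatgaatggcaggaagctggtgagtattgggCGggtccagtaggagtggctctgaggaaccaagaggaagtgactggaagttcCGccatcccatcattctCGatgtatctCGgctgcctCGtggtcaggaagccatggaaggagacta
Zfp534: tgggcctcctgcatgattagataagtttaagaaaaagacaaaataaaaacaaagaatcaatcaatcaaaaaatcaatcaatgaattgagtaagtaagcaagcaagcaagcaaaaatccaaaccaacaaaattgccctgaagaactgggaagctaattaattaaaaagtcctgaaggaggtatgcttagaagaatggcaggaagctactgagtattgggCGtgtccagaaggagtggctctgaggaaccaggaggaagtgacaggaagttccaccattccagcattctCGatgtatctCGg
Zfp600: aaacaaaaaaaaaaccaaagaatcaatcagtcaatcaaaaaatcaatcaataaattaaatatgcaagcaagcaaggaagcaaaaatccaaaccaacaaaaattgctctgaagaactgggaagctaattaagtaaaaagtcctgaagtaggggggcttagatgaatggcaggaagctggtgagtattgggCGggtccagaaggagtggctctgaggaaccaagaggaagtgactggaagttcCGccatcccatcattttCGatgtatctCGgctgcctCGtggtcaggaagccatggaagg

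These 5 windows hold 3, 4, 5, 3 and 5 CG. All 5 hold the stretch tgagtattgggCG, which is the longest with a CG that they share. A search for it on both strands found it in 9 of 31396 autosomal windows of this length (0.0287%). Of those 9, 8 belong to Zfp genes of this part of chromosome 4 (Zfp534, Zfp600, Zfp979, Zfp980, Zfp982, Zfp985, Zfp987 and Zfp988) and 1 belongs to Rex2. The stretch was chosen from these windows, so its count describes them and nothing further is read from it. The windows of Zfp600 and Zfp979 were the most alike, with 290 identical bases in 306 aligned columns (94.8%), and one of them overlapped a captured region while the other did not. The windows of Zfp988 and Zfp534 had 281 identical bases in 313 columns (89.8%). Over the 87 pairs of windows from different genes of this stretch, the median longest shared run was 20 bases, and 10 pairs shared at least 50. Single copies on chromosome 4 carry uncertain values, because the assignment of reads that match more than 1 copy is not stated in any source at hand.

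Outside chromosome 4, a start of Zfp936 on chromosome 7 is shown because this gene returns in the comparisons of sections and of GermFree with ConvR mice. Its window, chr7:43177340-43177639 on the plus strand, lies inside the annotated gene body and not at its first base. It holds 6 CG and overlapped a captured region whose midpoint lay at 0.807 of the body length.
Zfp936: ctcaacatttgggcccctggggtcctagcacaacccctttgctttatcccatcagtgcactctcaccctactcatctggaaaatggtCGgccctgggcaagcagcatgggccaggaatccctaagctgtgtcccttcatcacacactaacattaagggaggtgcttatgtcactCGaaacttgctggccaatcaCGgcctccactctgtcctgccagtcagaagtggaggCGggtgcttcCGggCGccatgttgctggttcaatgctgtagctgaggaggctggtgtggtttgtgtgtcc

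Of 394 windows at the starts of 325 Zfp genes, 19 (4.82%), at 17 genes, overlapped a captured region. Over other autosomal genes the share was 8.99% of 31002 windows. Captured Zfp windows had a median of 5 CG and the 375 others a median of 14, and in other genes the medians were 6 and 8. At least 1 CG was present in 99.7% of Zfp windows and in 94.8% of all windows. Of the 11 windows in the chromosome 4 run described below, 8 (72.7%) were captured, with a median of 5 CG over the 11. The richest captured Zfp windows were those of Zfp996 on chromosome 12, with 25 CG, Zfp872 on chromosome 9, with 17, and 1 of the windows of Zfp982, with 16. Zfp708, which silences a class of retroelement, was captured at a window with 9 CG.

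The Zfp regions held 1.30% of the normalised counts (13003 CPM) in 0.883% of the regions. They were wider than other regions, with a median of 1560 bp against 1371 bp over other protein-coding genes and 1208 bp over all regions. Per length the captured DNA was close to that of other genes, with a median of 6.17 CPM per kb against 5.93. The mean density of Zfp regions divided by that of regions over other genes was 1.02 ± 0.0106 (SD over 12 mice), and with 1 region per gene it was 0.974 ± 0.0128. Over regions of 500 to 2000 bases it was 1.03 ± 0.00772. The side of 1 on which the ratio falls therefore changed with the choice of regions, and the reason was not tested.

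A captured region lay over 71.9% of the 388 Zfp genes and over 73.3% of 18752 other protein-coding genes. Among genes with bodies of 10 to 30 kb the shares were 69.8% of 245 and 78.3% of 5756. The related Zbtb, Zkscan and Zscan genes, which also encode zinc finger proteins, had a share of 85.1%, while the olfactory receptor genes (Olfr), another large family of copies, had 7.52% with bodies of 0.950 kb at the median. Zfp genes in runs, meaning at least 5 such genes with gaps of at most 250 kb, had a share of 72.7% (117 of 161), and those outside runs 71.4% (162 of 227). Of the 279 captured genes, 141 had 1 region and 60 had 2, while 15 genes with 10 or more held 325 of the 847 regions.

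The genes with the most regions were long. Zfp385b on chromosome 2 (77410622 to 77817706) held 33 regions in a body of 407 kb. Zfp469 on chromosome 8 held 32 in 230 kb, Zfp536 on chromosome 7, which restrains neuron differentiation, held 32 in 456 kb, and Zfp407 on chromosome 18 held 30 in 382 kb. Zfp978 on chromosome 4 held 23 regions in 267 kb. Captured regions covered 33.4% of the body of Zfp469 and 27.5% of that of Zfp978, against 15.5% at Zfp385b and 10.9% at Zfp536. The 5 densest Zfp regions all lay on chromosome 4. The densest, over Zfp982 (147515958 to 147529908), was 13951 bp wide and held 361 CPM, or 25.9 CPM per kb. The next were 2 more over Zfp982, at 16.6 and 14.3 CPM per kb, 1 over Zfp979 at 16.2 and 1 over Zfp993 at 15.6.

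Along the gene, the places of Zfp regions were near those of regions in other genes. Of 550 regions in 225 genes whose strand is given, 162 (29.5%) had their midpoint in the last 20% of the body, against 26.3% of 44082 regions of other genes. The gap came from the stretch between 80% and 90% of the body, with 16.7% against 11.9%, while the last 10% held a lower share of the Zfp regions, 12.7% against 14.4%. In bodies of 10 to 30 kb the shares in the last 20% were 32.9% and 27.4%, and those in the last 10% were 10.96% and 14.17%. The first 20% held 15.3% and 14.8%. The gene table has no exons, so it was not tested whether the last 20% holds the exon that encodes the zinc fingers, which in this family is usually the last. Regions of 1 gene are not independent, and these shares are descriptions.

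**Figure D1:**
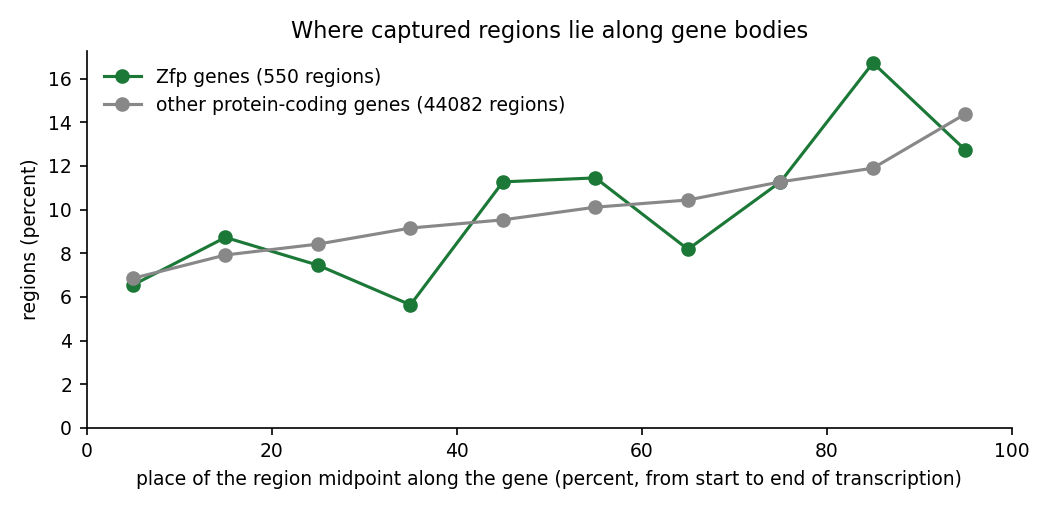
Place of captured regions along gene bodies. The horizontal axis is the place of the region's midpoint in percent of the body from the start to the end of transcription, the vertical axis is the percent of regions in each bin, and the lines are 550 regions of Zfp genes (green) and 44082 regions of other protein-coding genes (grey). The grey line rises to its last bin (14.4%), the green line is highest in the bin before it (16.7%) and drops to 12.7%, and 29.5% of the Zfp regions against 26.3% of the others lie in the last 20%.

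Depth limited single regions. Library totals ran from 1007560 to 3033782 counts, the Zfp regions together held 13021 to 38471 counts per library, and the median Zfp region held between 9 and 29 counts. Replicates were separate mice. ConvR mice 1 and 3 stood apart from the other ConvR mice in earlier results of these data, so results that rest on them are also given without them. In the sums over the 78 regions of the chromosome 4 run, the lowest libraries were ConvR mouse 3 duodenum (2298 CPM) and ileum (2322), GermFree mouse 4 ileum (2493) and ConvR mouse 3 colon (2798).

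The colon was compared with the mean of the small intestine sections to ask where captured DNA differs along the gut. In the colon, the young Zfp copies on chromosome 4 held more captured DNA than in the small intestine. Of the 847 Zfp regions, 60 passed the test with edgeR (7.08%, adjusted p under 0.05), 55 higher and 5 lower in the colon, in 23 genes when each region is counted under 1 gene. Over all 95876 regions tested, 2.39% passed, 1.79% higher and 0.607% lower. The Zfp shares were 6.49% higher and 0.590% lower. In a fit of the autosomes only, 1.99% of the tested regions passed, and 62 Zfp regions did. The median log2 difference over the Zfp regions was 0.00, as over all regions.

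Most of the higher regions lay in 1 run of genes. The run of 12 Zfp genes from Zfp992 to Zfp933 on chromosome 4 (146449030 to 147849126, 1.4 Mb) held 78 regions, of which 40 were higher and 0 lower, 75 had a positive difference, and the median log2 difference was 0.30. The genes Zfp990, Zfp980, Zfp987 and Zfp600, which lie before the run on the same chromosome, held 15 regions, of which 7 were higher, with a median of 0.33. The other 754 Zfp regions had 8 higher and 5 lower, with a median of −0.02. Over all regions, 49.8% of the differences were positive. Regions between the Zfp genes of the run gave values near those over them, with 11 of 23 higher and a median of 0.28. In the 1 Mb after the last gene of the run, 0 of 85 regions were higher and 1 was lower (median −0.06), and in the 1 Mb before the first gene, 6 of 34 were higher (median 0.14).

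**Figure D2:**
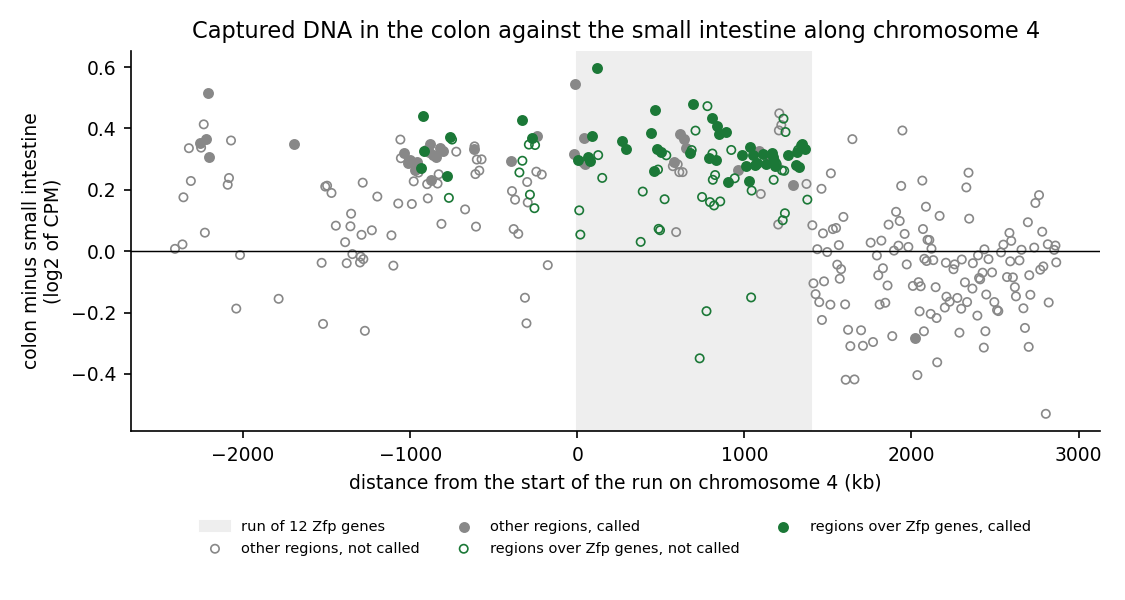
Colon minus small intestine along the end of chromosome 4. The horizontal axis is the distance in kb from the start of the run of 12 Zfp genes (grey band), the vertical axis is the log2 difference in CPM between the colon and the mean of the small intestine sections, green points are regions over Zfp genes, grey points other regions, and filled points passed the test (edgeR adjusted p under 0.05). In the band 75 of 78 Zfp regions lie above 0, and the level falls to a median of −0.06 in the 1 Mb after it.

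Within the run, the counts of higher regions by gene were 3 of 3 at Zfp981, 2 of 2 at Zfp985, 7 of 9 at Zfp982, 5 of 7 at Zfp984, 4 of 6 at Zfp979, 8 of 17 at Zfp993, 9 of 23 at Zfp978, 1 of 3 at Zfp992 and 1 of 7 at Zfp534. The 1 region of Zfp933, at the far edge, was not called (log2 0.17). Before the run, 3 of 3 regions of Zfp990, 2 of 4 of Zfp980, 1 of 3 of Zfp987 and 1 of 5 of Zfp600 were higher. Gene medians lay between 0.13 (Zfp992) and 0.35 (Zfp600). The body of Zfp993 overlaps that of Zfp981, and the body of Zfp978 holds those of Zfp991 and Zfp988, so 8 of these regions belong to 2 genes.

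Single regions show the size of the difference. At Zfp980 (145684068 to 145689748), the colon libraries ran from 36.5 through a median of 72.1 to 88.6 CPM, and the small intestine means of the same mice from 37.7 through 56.6 to 60.4. The ranges overlapped, and the colon was higher in 11 of 12 mice (70.3 ± 13.2 against 53.2 ± 7.08 CPM, SD, n = 12; log2 0.37, edgeR adjusted p = 0.000933). Zfp600 gave 78.1 ± 12.8 against 60.0 ± 8.64 CPM at 146172051 to 146179441, higher in 11 of 12 mice (log2 0.37, edgeR adjusted p = 0.00103). Zfp981 gave 38.2 ± 5.59 against 29.3 ± 4.39 CPM at 146533248 to 146539125, higher in 12 of 12 mice (log2 0.38, edgeR adjusted p = 0.00191). The smallest adjusted p of any Zfp region was at Zfp978 (147332364 to 147345529), with a log2 difference of 0.39 (edgeR adjusted p = 0.000699). The largest positive difference was at a short region of Zfp993 (146568263 to 146568733), with 6.10 ± 2.35 against 3.92 ± 1.16 CPM, higher in 10 of 12 mice (log2 0.60, SE 0.18, edgeR adjusted p = 0.0439). At the other named regions the log2 difference was 0.48 at Zfp978 (147141206), 0.44 at Zfp990 (145525801) and 0.43 at Zfp987 (146115576), with edgeR adjusted p of 0.00836, 0.00194 and 0.0301.

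Summed over the 78 regions, the run held between 2798 and 5174 CPM in the colon (median 4596). The duodenum ran from 2298 to 4731 (median 3504), the jejunum from 3052 to 4367 (median 3724) and the ileum from 2322 to 4139 (median 3766). The colon of a mouse was above all of its small intestine sections in 11 of 12 mice, although the ranges over mice overlap. The exception was ConvR mouse 3, with 2798 CPM in the colon and a small intestine mean of 2810, and the widest gap was in GermFree mouse 4, with 4927 and 2955. The mean over mice was 4516 ± 618 in the colon and 3656 ± 478 in the small intestine (SD, n = 12), a log2 ratio of 0.30 ± 0.19. The 769 Zfp regions outside the run gave 9182 ± 70.3 and 9116 ± 94.0 CPM, a log2 ratio of 0.01 ± 0.01. No p is given for these sums, because the run was set apart after its values were known.

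**Figure D3:**
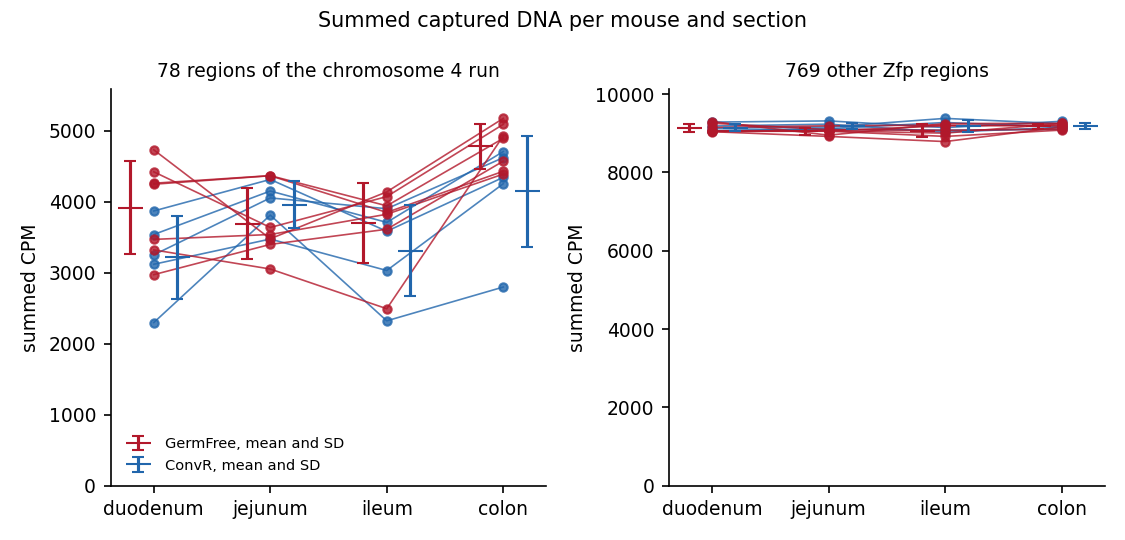
Summed captured DNA per mouse and section. The horizontal axis is the section, the vertical axis the summed CPM, each line is 1 mouse (red GermFree, 7 mice; blue ConvR, 5 mice), crosses with bars are the mean and SD of a group, and the panels show the 78 regions of the chromosome 4 run and the 769 other Zfp regions. In the first panel the colon lies above all small intestine sections of the same mouse in 11 of 12 mice, while in the second the means are 9116 CPM in the small intestine and 9182 in the colon.

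The chromosome 4 regions were also deep and dense, with medians of 19.2 CPM and 8.14 CPM per kb against 6.06 CPM per kb for the Zfp regions outside the run, and 25 of 78 (32.1%) were 5 kb or wider against 8.19%. Regions elsewhere on the autosomes that reached both medians of the run numbered 368 on 19 chromosomes, and 205 of them (55.7%) were higher in the colon, with a median log2 difference of 0.26. Among these 368, 61.4% lay outside protein-coding genes and 1 lay over a Zfp gene (Zfp180). Depth alone or density alone gave lower shares, 7.19% of 8571 and 1.57% of 18696 regions. Their sum per mouse rose in the colon by a log2 of 0.22 ± 0.18, in 11 of 12 mice. Over the 48 libraries the sum of the run correlated with the sum of these 368 regions at r = 0.896 and with the TMM factor of the library at r = −0.894, and with the library total at r = −0.135. The points share mice, libraries and scaling, and the part of these measures in the difference was not tested.

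Outside chromosome 4, 8 Zfp regions were higher in the colon, in 5 genes. Zfp951 on chromosome 5 (104802434 to 104807455) gave 35.7 ± 5.16 CPM in the colon and 27.1 ± 3.16 in the small intestine, higher in 11 of 12 mice (log2 0.40, SE 0.07, edgeR adjusted p = 0.000937). Zfp936 on chromosome 7 had 4 regions higher in the colon, the largest difference at 43166947 (26.9 ± 5.62 against 19.98 ± 3.95 CPM, log2 0.40, edgeR adjusted p = 0.00386). Zfp429, in the run on chromosome 13, was higher at 67388597 by a log2 of 0.53 (edgeR adjusted p = 0.0467). Zfp322a and Zfp326 had 1 higher region each, with log2 differences of 0.34 and 0.33.

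The 5 lower regions lay in 5 genes that are apart from each other. At Zfp469 (chromosome 8, 122237284 to 122238563) the colon ran from 5.10 through 7.15 to 10.3 CPM and the small intestine mean from 8.45 through 10.1 to 12.2. The colon was lower in 12 of 12 mice (7.17 ± 1.4 against 10.05 ± 1.13 CPM, log2 −0.47, edgeR adjusted p = 0.0135). The other regions of Zfp469 were not called. Zfp94 on chromosome 7 (24301841) gave a log2 difference of −0.45 (edgeR adjusted p = 0.00180) and was lower in 9 of 12 mice. Zfp119b on chromosome 17 (55954842) gave −0.68, Zfp607a on chromosome 7 (27882902) −0.55 and Zfp7 on chromosome 15 (76889368) −0.36, with edgeR adjusted p of 0.0307, 0.0333 and 0.0157.

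Runs of Zfp genes differed from one another. Of 17 runs, 3 had a higher region in the colon. Besides chromosome 4, these were the run from Zfp936 to Zfp819 on chromosome 7 (43114166 to 43618279), with 4 of 11 regions higher and a median of 0.23, and the run from Zfp712 to Zfp273 on chromosome 13, with 1 of 12 and a median of 0.27. The run from Zfp84 to Zfp146 on chromosome 7 (29768552 to 30169775) had a captured region at all 15 of its genes, but 0 of 32 regions were called and the median was −0.10. On chromosome 17, 4 of the 18 genes from Zfp677 to Zfp946 had a captured region. The runs on chromosome 4 and at Zfp936 had the widest spacing, 117 and 101 kb per gene.

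**Figure D4:**
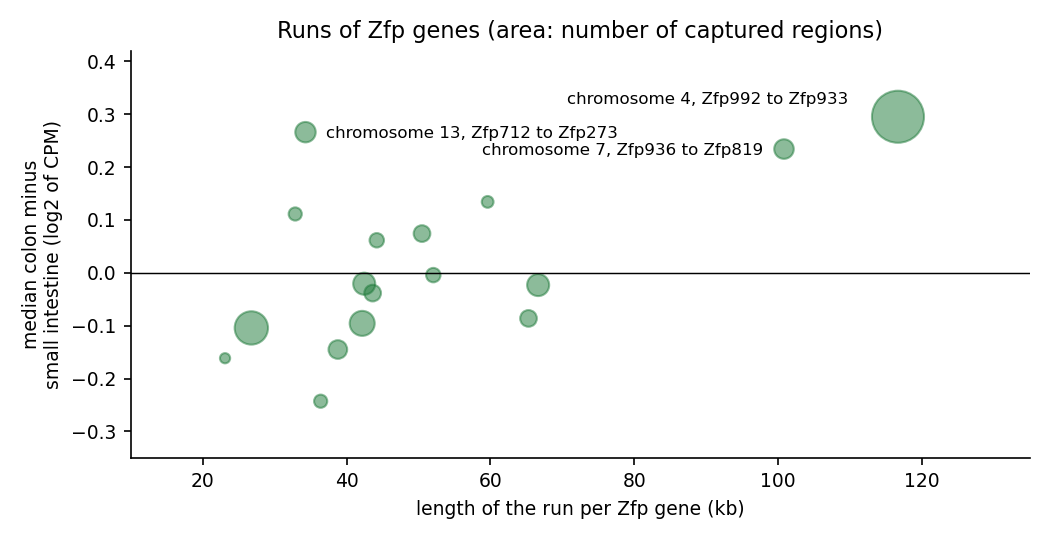
The 17 runs of Zfp genes with captured regions. The horizontal axis is the length of the run per Zfp gene in kb, the vertical axis is the median log2 difference in CPM between the colon and the small intestine, and the area of a circle is the number of captured regions. The chromosome 4 run is the largest circle, at 117 kb per gene and a median of 0.30, and the named runs on chromosomes 13 and 7 lie at 0.27 and 0.23.

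With the mouse as a replicate block, which uses the pairing of the sections, 99 Zfp regions passed (all regions 3.78%). Of these, 78 were higher and 21 lower, with all 60 of the main fit among them. With library totals in place of TMM factors 67 passed, 46 higher and 21 lower (all regions 2.35%). The count was 20 without ConvR mouse 5, 31 without GermFree mouse 4, 35 without ConvR mouse 4, 39 without ConvR mouse 1 and 101 without ConvR mouse 3, and that of the chromosome 4 run was 13, 21, 26 and 25 without the first 4 of these. Over all regions, the shares called without these mice, in the order named, were 0.759%, 1.12%, 1.21%, 1.44% and 4.04%. With all mice the share was 2.39%. In GermFree mice alone, 70 Zfp regions passed (all regions 2.92%) and the median of the run was 0.36. In ConvR mice alone, 0 passed with edgeR, as did 0 of the 91070 regions tested, while the median of the run was 0.22 with 71 of 77 differences positive.

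The lists of Zfp genes by assigned role showed little outside chromosome 4. Of 12 genes listed under silencing of retroelements and imprinting, 10 had a captured region (not Zfp932 and Zfp42). Of their 36 regions, 4 were higher in the colon, 3 at Zfp981 and 1 at Zfp600, both on chromosome 4 (11.1% higher, against 1.79% of all regions, with a list median of 0.08). Zfp618 alone held 15 of the 36 regions, with 0 called and a median of −0.06, and its place in this list was not tested. Zfp57 and Zfp445, which guard imprints, Zfp568, which silences a placental promoter of Igf2, and Zfp809, which silences murine leukaemia virus copies, had 0 called regions of 1, 4, 4 and 1, with gene medians of −0.18, 0.04, 0.04 and 0.01. Of 15 genes with roles in lymphocytes and inflammation, 14 matched a symbol and 10 had 74 regions, none called with edgeR and 8 with an unadjusted p under 0.05, a level that 15.03% of all regions reached. Zfp36, Zfp36l1 and Zfp36l2, whose proteins mark messenger RNA for decay, had no captured region. Of 22 genes with roles in neurons, fat and development, 21 matched and 16 had 173 regions, of which 0 passed and 25 had an unadjusted p under 0.05, which is also near the 15.03% of all regions. Zfp423 and Zfp521, which promote and restrain fat cell formation, had medians of −0.12 and 0.04 over 21 and 22 regions.

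The partners of KRAB proteins are not Zfp genes and were read beside them. Of 22 partner genes, 20 had 66 captured regions, of which 1 was higher and 2 were lower in the colon (all regions 2.39% in either direction). A region of Suv39h2, a histone methyltransferase, was higher in the colon (log2 0.49, edgeR adjusted p = 0.0415). A region of Dnmt1, which copies methylation at replication, was lower (log2 −0.31, edgeR adjusted p = 0.0275), as was one of Dnmt3a, which sets new methylation (log2 −0.34, edgeR adjusted p = 0.0466). The 1 region of Trim28 gave −0.41 (edgeR adjusted p = 0.117). Among like families, Zbtb, Zkscan and Zscan genes had 1 higher and 4 lower of 200 regions, and Olfr genes had 5 higher and 0 lower of 86 tested.

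GermFree and ConvR mice were compared to ask whether microbes go with a change in captured DNA. Few Zfp regions differed. On counts summed over the sections of each mouse, 1 of 847 passed (edgeR adjusted p under 0.05), against 0.475% of all regions, and 76 (8.97%) had an unadjusted p under 0.05, against 6.63% of all regions. In the duodenum 1 of 719 tested Zfp regions passed (all regions 0.463%). In the jejunum the count was 5 of 758, a share of 0.660% (all regions 0.343%). The ileum had 2 of 784 (all regions 0.365%). In the colon 0 of 714 passed with edgeR (all regions 0.542%), with 73 (10.2%) at an unadjusted p under 0.05, against 7.44% of all regions, and the count from DESeq2 was also 0. In fits of the autosomes only, where all Zfp regions lie, the Zfp counts were the same and the shares of all regions were lower. These shares were 0.292% on the sums, 0.263% in the duodenum, 0.151% in the jejunum, 0.188% in the ileum and 0.305% in the colon. All the Zfp regions that passed were lower in GermFree mice, and they lay in 3 genes, Zfp949, Zfp266 and Zfp936. Over all regions most calls went the other way, with 413 higher and 42 lower in GermFree mice on the sums, 319 and 30 in the duodenum, 249 and 32 in the jejunum, and 270 and 42 in the ileum. In the fits of the autosomes only, the counts in the same order were 227 and 49, 168 and 27, 95 and 27, and 117 and 41.

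Zfp949 on chromosome 9 (88552831 to 88553646) gave 25.3, 5.58, 23.7, 5.09 and 10.9 CPM in the summed libraries of ConvR mice 1 to 5. The GermFree mice ran from 3.99 through a median of 5.22 to 11.8. ConvR mice 1 and 3 were above every GermFree mouse, while ConvR mice 2 and 4 lay within the GermFree range. The log2 difference was −1.06 (SE 0.25, edgeR adjusted p = 0.0236), and it was −1.20 in the duodenum (adjusted p = 0.0173) and −1.44 in the ileum (adjusted p = 0.00210). Without ConvR mice 1 and 3 it was −0.24 on the sums (edgeR adjusted p = 0.993), −0.37 in the duodenum and −0.67 in the ileum. On the sums it also failed to pass without ConvR mouse 1 or 3 alone and without GermFree mouse 1, 3, 5 or 7, with edgeR adjusted p between 0.0668 and 0.365. Libraries of both models share the codes in the library titles, except the code of GermFree mice 5 and 7, which no ConvR library has. With the code as a block, those mice add nothing to the difference between models. In that fit the region failed to pass on the sums and in the duodenum (edgeR adjusted p 0.0821 and 0.0779), and it passed in the ileum. DESeq2 did not call it on the sums, in the duodenum or in the ileum.

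Zfp266, also on chromosome 9 (20509512 to 20510284), passed in the ileum (log2 −1.54, SE 0.32, edgeR adjusted p = 0.00347). There the ConvR mice gave 43.2, 4.22, 17.6, 5.23 and 8.50 CPM, and the GermFree mice ran from 3.14 through 4.15 to 5.18. Again ConvR mice 1 and 3 were the highest, and mice 1, 3, 4 and 5 lay above all GermFree mice. In the duodenum ConvR mice 1 and 3 gave 47.0 and 37.4 CPM and GermFree mouse 2 gave 21.5, while in the colon ConvR mice 1 and 3 gave 6.92 and 3.26, within the GermFree range of 3.29 to 8.90 or just below it. Without ConvR mice 1 and 3 the ileum difference was −0.52 (edgeR adjusted p = 1.0), and without mouse 1 alone it was −0.98 (edgeR adjusted p = 0.271). On the summed counts it was −0.85 (edgeR adjusted p = 0.220). ConvR mice 1 and 3 and, among the GermFree mice, mouse 2 were thus high at both genes, and what sets them apart was not tested.

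Zfp936 differed in the jejunum, and the pattern did not rest on ConvR mice 1 and 3. Its 5 called regions lay next to each other on chromosome 7 (43146557 to 43191681), and the fourth overlaps the start printed above, which is inside the gene body. Summed, they gave 187, 268, 247, 281 and 237 CPM in the jejunum of ConvR mice 1 to 5, and 145 through 168 to 211 in GermFree mice. ConvR mouse 1 lay within the GermFree range and the other 4 above it (mean 244 ± 36.3, n = 5, against 174 ± 22.1, n = 7). By region, from the first to the last, the log2 difference was −0.64, −0.50, −0.61, −0.46 and −0.49, with edgeR adjusted p of 0.00419, 0.000361, 0.00184, 0.0125 and 0.00880. The other 2 regions of the gene gave −0.40 and −0.41 (adjusted p 0.0787 and 0.666). Without ConvR mice 1 and 3, 6 regions of Zfp936 passed in the jejunum, 5 of them the same, and 5 passed on the summed counts. The count of Zfp regions called in the jejunum was 3 without ConvR mouse 2, 2 without ConvR mouse 4 and 3 without GermFree mouse 7, and DESeq2 called 1. Without GermFree mouse 3 it was 8, which included regions of Zfp978 and Zfp993.

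In the other sections the Zfp936 sums of the groups were closer. The means were 198 ± 31.9 in GermFree and 203 ± 38.7 CPM in ConvR mice in the duodenum, 179 ± 29.9 and 205 ± 32.0 in the ileum, and 238 ± 23.2 and 256 ± 49.6 in the colon. The joint test of whether the difference between models varies by section did not pass at any of these regions (edgeR adjusted p = 0.986), so the difference is not shown to belong to the jejunum. Over the 48 libraries the Zfp936 sum and that of the chromosome 4 run had r = 0.716, with mice, libraries and scaling shared.

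**Figure D5:**
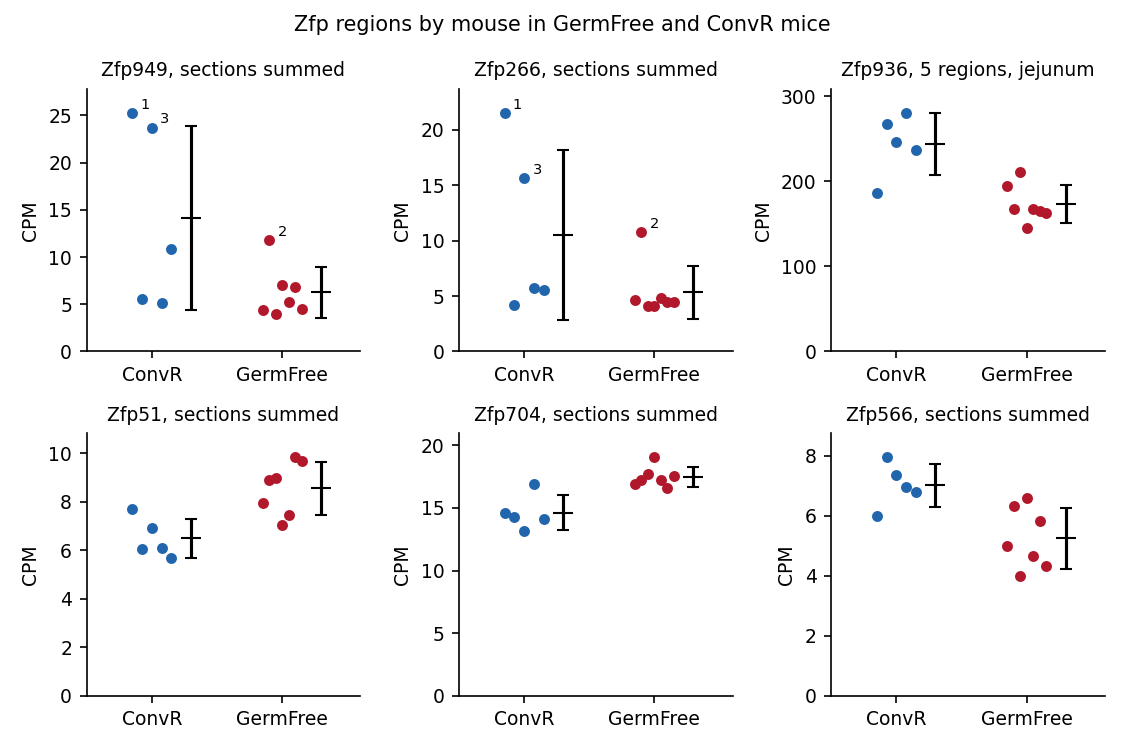
Captured DNA at Zfp regions in ConvR (blue, 5 mice) and GermFree mice (red, 7 mice). Each panel has the model on the horizontal axis and CPM on the vertical axis, points are mice, crosses with bars are the mean and SD, and numbers mark ConvR mice 1 and 3 and GermFree mouse 2. ConvR mice 1 and 3 stand above the rest at Zfp949 and Zfp266, while at Zfp936 in the jejunum 4 of 5 ConvR mice lie above the GermFree mice.

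The regions next in order of p on the summed counts did not pass. Zfp51 on chromosome 17 (21463366) gave 7.67, 6.06, 6.92, 6.09 and 5.68 CPM in ConvR mice and 7.02 through 8.89 to 9.83 in GermFree mice, a log2 difference of 0.42 (edgeR adjusted p = 0.131). In the duodenum, where it was 0.91 (edgeR adjusted p = 0.0550), the lowest of the 7 GermFree mice exceeded the highest ConvR mouse. Zfp704 on chromosome 3 (9512253) gave 0.26 and Zfp566 on chromosome 7 (30085221) −0.43, with edgeR adjusted p of 0.197 and 0.230. In the duodenum, Zfp385b (77802835), Zfp993 (146840526) and Zfp248 gave 0.59, 1.0 and 0.89, with edgeR adjusted p of 0.106, 0.126 and 0.162. In the ileum, Zfp978 (147155979) gave 1.0 (edgeR adjusted p = 0.0545) and each of the 7 GermFree mice exceeded the highest ConvR mouse, while Zfp992 and Zfp704 (9580558) gave 0.43 and −0.71. In the colon the first 5 were Zfp987 (0.62, edgeR adjusted p = 0.0908), Zfp981 (0.38), Zfp777 on chromosome 6 (−0.69, each of the 7 GermFree mice under the lowest ConvR mouse), Zfp978 and Zfp993 (0.35 each).

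None of the chromosome 4 run was called between the models with edgeR. On the summed counts, 17 of its 78 regions had an unadjusted p under 0.05, against 6.63% of all regions (DESeq2 called 0 Zfp regions there). The summed difference was positive, that is higher in GermFree mice, in 71 of 78 regions (all regions 49.5%), with a median of 0.13. By section the median was 0.25 in the duodenum, −0.10 in the jejunum, 0.17 in the ileum and 0.21 in the colon. The run sums of ConvR mice were 3215 ± 588, 3961 ± 327, 3309 ± 640 and 4144 ± 776 CPM in the duodenum, jejunum, ileum and colon, and those of GermFree mice 3917 ± 657, 3691 ± 496, 3704 ± 562 and 4782 ± 318. The SDs are as large as most of these gaps, and without ConvR mice 1 and 3 the medians were 0.06 on the sums, 0.15 in the duodenum, −0.13 in the jejunum, 0.11 in the ileum and 0.11 in the colon. Of the lists by role, 0 of 36, 0 of 74 and 0 of 173 regions passed with edgeR on the summed counts. Those at an unadjusted p under 0.05 numbered 1, 2 and 13, against 6.63% of all regions.

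Along the small intestine no Zfp region passed. Between the ileum and the duodenum edgeR called 0 of 847 (all regions 0.00209%), with 55 (6.49%) at an unadjusted p under 0.05, against 4.75% of all regions, and DESeq2 also called 0. The regions with the smallest p were in Zfp521 (−0.66, edgeR adjusted p = 0.648), Zfp799 (0.73), Zfp708 (0.53), Zfp462 (−0.62) and Zfp423 (−0.42). At Zfp521, which restrains fat cell formation, the ileum gave 4.84 ± 1.64 and the duodenum 7.05 ± 1.78 CPM, lower in 10 of 12 mice. The joint test for variation of the GermFree and ConvR contrast by section called 0 of 847 with edgeR (all regions 0%), with 63 (7.44%) at an unadjusted p under 0.05, against 4.95% of all regions, and 0 called by DESeq2. Its 5 smallest p lay at Zfp993 (2 regions), Zfp978, Zfp326 and Zfp729a, each with an edgeR adjusted p of 0.986.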

How the data were processed

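MBD-seq libraries of 100-bp single-end reads were made from 4 intestine sections of 12 mice. Per the submitters' processing notes, Trim Galore 0.3.7, cutadapt 1.4.2, MACS2 and featureCounts were used with the build mm10. Not given in the sources used here are the aligner, the treatment of duplicate and multi-matching reads, and the libraries behind the peak calls. The region names all have a GermFree prefix. The table of counts that was deposited holds whole-number counts per region, not normalised by the authors. The deposited peak list gives positions and the authors' score per region, used only for a filter in an alternative.

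Regions were matched to RefSeq genes (GRCm38.p6). The members and lists were chosen with earlier results of these data known. Counts were fitted over all regions with edgeR 4.0.16 in R 4.3.3 (TMM, the filter filterByExpr, quasi-likelihood F-test with trended dispersion, Benjamini-Hochberg over tested regions, threshold 0.05). GermFree and ConvR mice were compared on 12 libraries per section and on sums per mouse, sections over 48 libraries in 8 groups, and variation by section with a joint test of 3 contrasts. DESeq2 1.42.0 was an alternative, with the others named in the closing section. The fits were also run on simulated counts with known changes, a fixed dispersion and no outlying mice. That setting is simpler than these data and does not test regions that move together across libraries. Tables and figures used data.table, version 1.17.8, Python 3.11.15, NumPy 2.4.6, pandas 2.3.3 and Matplotlib 3.10.9.

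Where 12 or fewer genes passed, all were named. Otherwise up to 10 genes per direction with the largest log2 difference were named (1 region per gene, at least 1 CPM), and with under 5 passing regions the list was the 5 smallest p. Other genes and the like regions elsewhere were chosen after their values were seen. Libraries of the same mouse pair the sections, as the labels give the mouse. Over 72 such pairs the median correlation of deviations from the group mean was 0.0201. A planned grouping by KRAB box and number of fingers was not made, since no protein sequences were used here.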

Additional observations from a re-analysis of the deposited data

Results flagged for a closer look

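In 5 of the 70 groups of mice examined at the named Zfp regions and the chromosome 4 run (7.14%), 1 mouse lay far from the others of its group, and chance alone would set apart about 1 group in 20. On counts summed over sections, GermFree mouse 2 gave 11.8 CPM at Zfp949 (the next GermFree mouse 7.02) and 10.8 CPM at Zfp266 (the next 4.78). These are the genes at which ConvR mice 1 and 3 were high. GermFree mouse 4 was the lowest in the jejunum at the Zfp936 region starting at 43146557, with 11.3 CPM (the next 14.9). It was also the lowest in the ileum in the sum over the chromosome 4 run, with 2493 CPM (the next 3612). In the colon, ConvR mouse 3 had the lowest sum over the run among ConvR mice, with 2798 CPM (the next 4254). What sets these mice apart was not tested.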

How the results depend on the processing

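Between the colon and the small intestine, the 60 called Zfp regions became 99 with the mouse as a replicate block, 0 in ConvR mice alone and 93 without ConvR mice 1 and 3 with the mouse as a replicate block. Leaving out each mouse in turn gave 20 to 101, and 13 to 48 for the higher regions of the chromosome 4 run (40 with all mice, 0 in ConvR mice alone). The share called over all regions moved as well, from 0.759% to 4.04% without 1 mouse, against 2.39% with all mice. It was 3.78% with the mouse as a replicate block. Between GermFree and ConvR mice on summed counts, the single call became 0 with DESeq2, with the mouse number as a replicate block in mice 1 to 5 (GermFree mice 6 and 7 left out), with scores at or above the median and with the title code as a block, 5 without ConvR mice 1 and 3, and 0 to 2 without 1 mouse. In the duodenum it became 0 with DESeq2, with the score filter, with the title code as a block and without ConvR mice 1 and 3, and 0 to 4 without 1 mouse. In the jejunum the 5 calls became 1 with DESeq2, 3 with the mouse number as a replicate block in mice 1 to 5, 3 with the title code as a block, and 2 to 8 without 1 mouse. In the ileum the 2 calls became 0 with DESeq2 and without ConvR mice 1 and 3, and 1 to 3 without 1 mouse. In the colon the count of 0 became 1 without ConvR mice 1 and 3, and 0 to 1 without 1 mouse. For variation by section it became 1 (Zfp266) with the mouse as a replicate block. The density ratio of 1.02 became 0.974 with 1 region per gene. The Zfp266 difference on summed counts turned from −0.85 to 0.0245 without ConvR mice 1 and 3. The cause of these changes was not tested. Over 5 mouse numbers shared by the models, the deviations of same-numbered mice had correlations from −0.119 to 0.0427. That range holds the median of 0.0201 for libraries of the same mouse, so these values cannot tell whether the numbers pair mice. By the labels, mouse numbers 1 to 4 share a title code between the models and number 5 does not. The block by number and the block by title code therefore overlap and are not separate checks. Blocks moved no other count of called Zfp regions by over 1.5 times. Of the alternatives for single named regions, 884 kept direction and status, 92 lost the call, 12 gained one and 1 changed sign. The 884 include regions that passed neither in the main fit nor in the alternative. They therefore do not measure how often a call was kept. The median Zfp region held 9 to 29 counts per library, which limits the precision of single regions.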
